A study of Mus musculus with 6 samples.

Results

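The 39 Hox genes of the mouse were examined for peaks of the histone mark H3K4me3 and of the transcription factor MafA in MIN6 cells. The members were the protein-coding genes of the RefSeq table of GRCm38.p6 whose symbol is Hoxa, Hoxb, Hoxc or Hoxd followed by a number, 39 of the 21883 protein-coding genes placed on chromosomes 1 to 19, X and Y. The rule uses symbols and no measured value, though the group was picked with earlier results of these data known. Hoxa holds 11 of them, Hoxb 10, Hoxc 9 and Hoxd 9. A gene was counted as having a peak when a peak overlapped its body or the 1 kb on either side by at least 1 bp. Each cluster was also treated as a single locus, from its first to its last Hox gene with 1 kb either side.

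MIN6 is a mouse insulin-secreting line that grew from an insulinoma of a transgenic mouse and is labelled as beta cells. Binding was mapped by CUT&RUN, where a nuclease tethered to an antibody cuts out the chromatin that the antibody recognises, and the freed fragments are sequenced. All samples were cells of this line, 500000 each, opened with 0.01% digitonin, and the labels name no difference but the antibody: IgG as negative control, H3K4me3 as positive control and endogenous MafA, with 2 libraries each. Peak lists of the 2 H3K4me3 and the 2 MafA libraries were used, and no IgG file was analysed here. The labels do not say whether the libraries of a group came from separate cultures, so the spread between them may be technical.

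Hox genes encode homeodomain transcription factors that give the tissues of the embryo their position along the head-to-tail axis. They lie in dense clusters, and genes of low number are expressed further towards the head than genes of high number. In cells that do not use them the clusters are typically held silent by Polycomb complexes, while H3K4me3 marks promoters that are active or poised. MafA is a basic leucine zipper protein of the beta cell that activates the insulin genes.

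The lists held 16020 and 16904 peaks for H3K4me3 replicates 1 and 2 and 33013 and 42747 peaks for MafA replicates 1 and 2. Peaks were numbered without gaps in every list, and the numbers also ran on without a gap across each of the 4 clusters, so no peak had been taken out there after numbering. The lists reached down to a −log10 q of 2.04 and 2.01 for H3K4me3 and to 2.0 in each list for MafA. Of 12 beta cell markers, 11 had an H3K4me3 region in both replicates, and the other, Ins1, had a MafA region. The mark was found in both replicates at 0 of 6 exocrine markers, at 2 of 7 markers of other islet cells (Gcg and Irx2) and at 3 of 8 markers of stroma, endothelium and blood (Col1a1, Cd68 and Ptprc).

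The Hox clusters were almost empty of peaks. In all, 36 of the 39 Hox genes had no peak in any of the 4 lists, against 32.9% of all protein-coding genes. H3K4me3 peaks lay at 1 Hox gene in replicate 1 (Hoxc6) and at 2 in replicate 2 (Hoxc6 and Hoxb3), where 60.9% and 61.3% of protein-coding genes had such a peak. MafA peaks lay at 0 Hox genes in replicate 1 and at 1 in replicate 2 (Hoxd3), where 37.7% and 47.6% of protein-coding genes had one. A region found in both replicates, meaning overlapping peaks in both lists, was present for H3K4me3 at 1 Hox gene (background 60.6%), for MafA at 0 (background 34.3%), and for both targets at 0 (background 30.9%).

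The Hoxa locus held no peak in any list, so genes such as Hoxa5, Hoxa10 and Hoxa13 had none. In Hoxb the genes without a peak were Hoxb1, Hoxb2, Hoxb4, Hoxb5, Hoxb6, Hoxb7, Hoxb8, Hoxb9 and Hoxb13. In Hoxc they were Hoxc4, Hoxc5, Hoxc8, Hoxc9, Hoxc10, Hoxc11, Hoxc12 and Hoxc13, and in Hoxd they were Hoxd1, Hoxd4, Hoxd8, Hoxd9, Hoxd10, Hoxd11, Hoxd12 and Hoxd13. A missing peak says only that the signal did not pass the threshold of the list.

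Gene length bears on these shares, since a long gene has more room for a peak. The median Hox gene spanned 3.74 kb and the median protein-coding gene 17.2 kb, and 33 of the 39 Hox genes were shorter than 10 kb. Among the 7924 protein-coding genes under 10 kb, 40.3% had an H3K4me3 region in both replicates, 14.6% had a MafA region in both, and 56.4% had no peak in any list. The 3 Hox genes with a peak were among the 6 that span more than 10 kb.

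**Figure D1:**
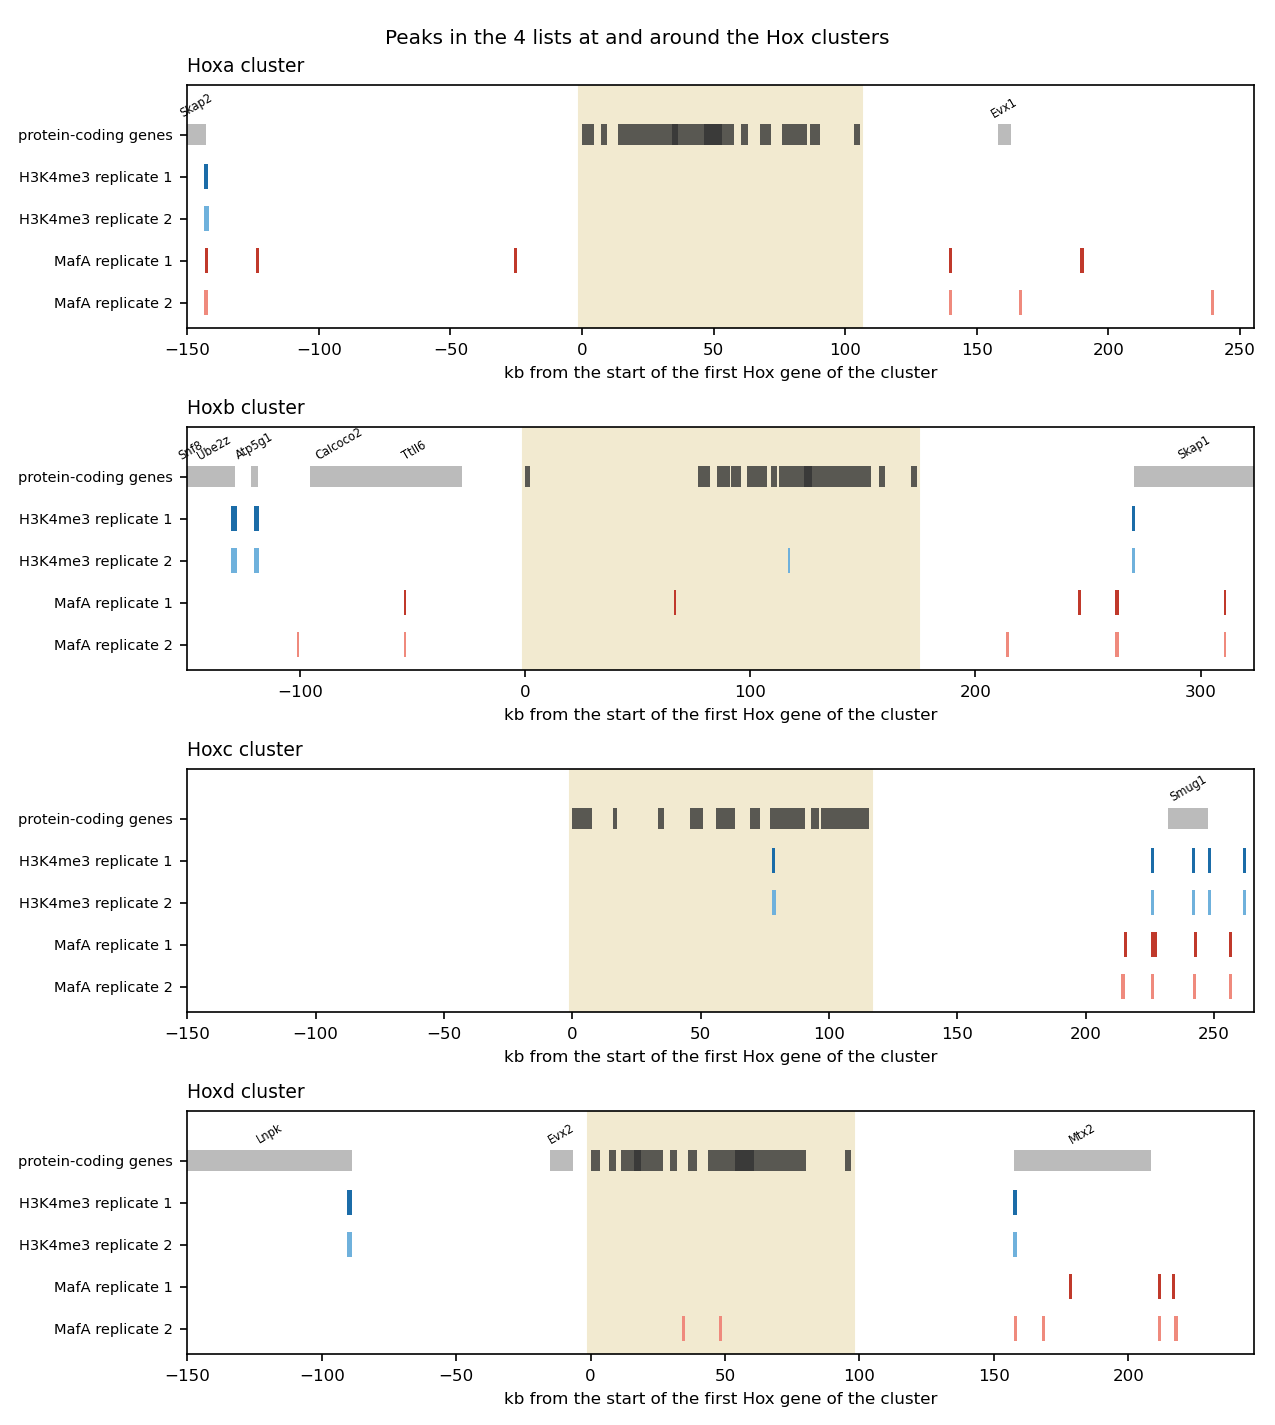
Peaks of the 4 lists at the Hox clusters, plotted as kb from the start of the first Hox gene, with Hox genes in dark grey, other protein-coding genes in light grey and the locus shaded. Peaks are drawn at least 1.2 kb wide so that they can be seen; the Hoxa locus holds none, and 6 peaks lie in the other 3 loci.

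Hoxc6, a gene active in the thoracic region of the embryo, was the only Hox gene with the same mark in both replicates. Its H3K4me3 peak ran from 102998956 to 102999726 on chromosome 15 in replicate 1 and from 102999112 to 102999819 in replicate 2 (GRCm38, 1-based). The summits at 102999207 and 102999168 lay 981 and 942 bp inside the gene from its lower coordinate, 102998226. The peak also came within 1 kb of the noncoding gene Gm29905.

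The mark at Hoxc6 was weak. Fold enrichment, the authors' value for how far the stacked fragments at a summit exceed the modelled local background, was 3.43 in replicate 1 and 4.41 in replicate 2 (3.92 ± 0.693, mean ± SD, n = 2), against a median of 14.8 and 13.4 over all peaks of those lists. The summits held 72 and 23 fragments, recovered from the fold enrichment and the p-value. After the caller's scaling these were pileups of 29.9 and 22.9 over a background of 8 and 4.43. Only 4.88% and 12.0% of the peaks in the lists had a lower fold enrichment. The −log10 q was 6.62 and 7.32, against medians of 246.7 and 196.9. The peaks were 771 and 708 bp wide, against median widths of 1716 and 1674 bp.

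Hoxb3, which acts in the hindbrain, had an H3K4me3 peak in replicate 2 alone. It ran from 96310902 to 96311462 on chromosome 11, inside the gene, with its summit 4259 bp from the gene's lower coordinate. Its fold enrichment was 3.58, from 31 fragments over a background of 7.93, and 6.08% of the peaks in that list were lower. Replicate 1 had no peak there. Summits with a −log10 p under 20 held a median of 73 fragments in replicate 1 and 30 in replicate 2. These counts precede the caller's scaling, by 0.415 and 0.997, and so are not directly comparable.

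Hoxd3, which patterns the upper neck vertebrae, was the only Hox gene with a MafA peak, and it had it in replicate 2 alone. The peak ran from 74715882 to 74716221 on chromosome 2, inside the gene, with its summit 4025 bp from the gene's lower coordinate. The noncoding gene Hoxd3os1 overlaps it. Its fold enrichment was 5.69, from 52 fragments scaled to a pileup of 38.8 over a background of 6, and 63.5% of the peaks in that list were lower. By fold enrichment it was therefore an ordinary peak of its list, while the peaks at Hoxc6 and Hoxb3 stood at the low end of theirs. In width it was small, at 340 bp, with 13.9% of the list narrower and a median of 651 bp.

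The remaining 2 peaks lay between Hox genes, and each was in a single MafA list. MafA replicate 1 had a peak 10657 bp from Hoxb9, inside the noncoding gene Gm53, with a fold enrichment of 4.17 from 12 fragments over a background of 2.12. MafA replicate 2 had a peak 1966 bp from Hoxd9 and 2128 bp from Hoxd8, with a fold enrichment of 2.90 from 22 fragments scaled to 16.4 over a background of 5. The lowest number of fragments at any summit of those lists was 8 and 14. No MafA peak in a Hox locus was thus seen in both replicates.

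**Figure D2:**
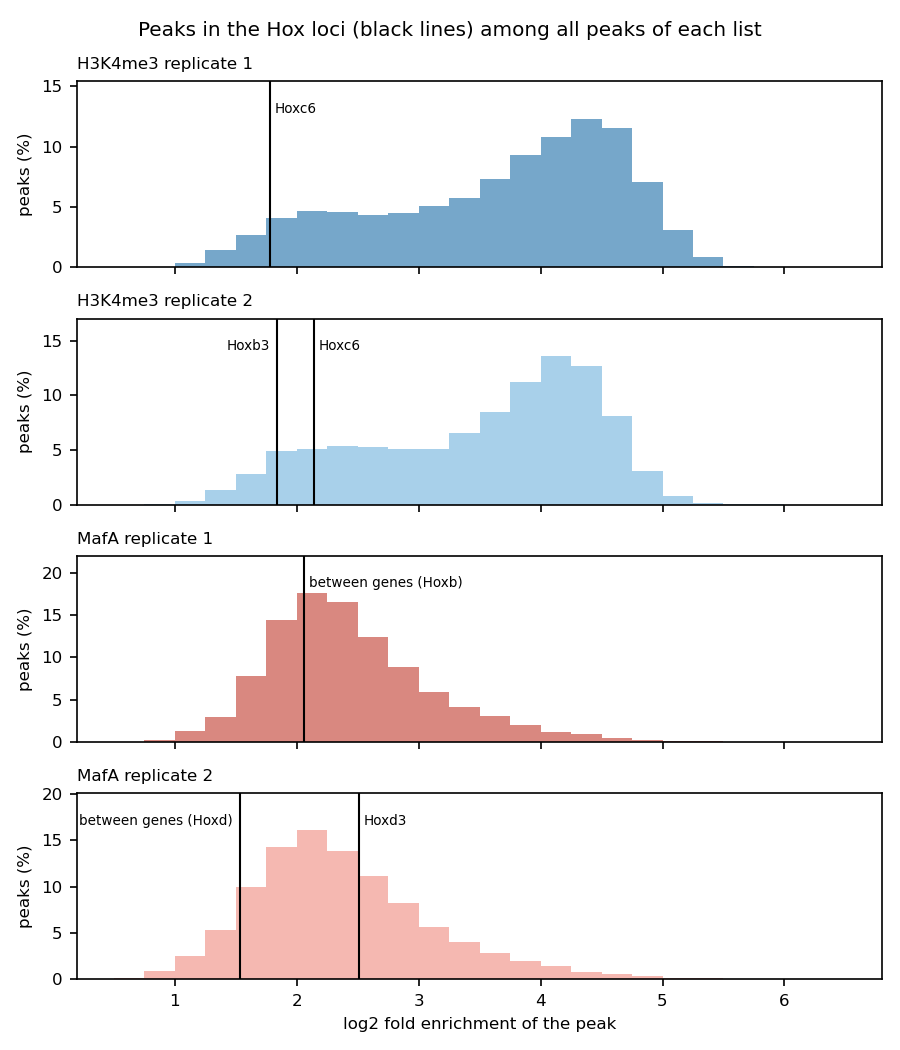
Fold enrichment of all peaks of each list on a log2 axis (bars, percent of peaks) with the 6 peaks of the Hox loci as black lines, named by the Hox gene they touch. The H3K4me3 peaks at Hoxc6 and Hoxb3 sit at the low end of their lists, at 4.88 to 12.0% of peaks, and the MafA peak at Hoxd3 at 63.5%.

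The same emptiness was measured in base pairs. Together the 4 loci span 500.1 kb, of which H3K4me3 peaks covered 771 bp in replicate 1 and 1269 bp in replicate 2, and MafA peaks covered 385 and 654 bp. As a share this was 0.154 and 0.254% for H3K4me3 and 0.0770 and 0.131% for MafA. Over the genome, taken up to the last gene or peak of each chromosome, the lists covered 1.07 and 1.09% for H3K4me3 and 0.819 and 1.24% for MafA. A stretch of the loci's length at these genome means would hold 5328 and 5454 bp of H3K4me3 peaks and 4094 and 6180 bp of MafA peaks. The difference from the genome was described and not tested.

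Whether the mark and the factor differed in their reach into the loci was tested over libraries. The covered share was 0.204 ± 0.0704% for H3K4me3 and 0.104 ± 0.0380% for MafA (mean ± SD, n = 2 each), a difference of 0.10 percentage points (exact permutation test, two-sided, p = 0.33). The share of Hox genes with a peak was 3.85 ± 1.81% for H3K4me3 and 1.28 ± 1.81% for MafA, a difference of 2.56 percentage points (exact permutation test, two-sided, p = 0.667). The smallest p that 2 libraries against 2 can give is 0.33, so neither test could pass 0.05. The groups did not overlap in covered share and shared the value 2.56% in the share of genes. The loci held 1 peak in replicate 1 and 2 in replicate 2 for each target, so the covered share depends on peak width. Median widths over all peaks were 1716 and 1674 bp for H3K4me3 and 556 and 651 bp for MafA.

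Around Hoxa, Hoxb and Hoxd the nearest H3K4me3 regions lay at neighbouring genes. The stretch without an H3K4me3 region around Hoxa ran for 625.9 kb, from Skap2 on one side to Hibadh on the other, and held 12 protein-coding genes, the 11 Hoxa genes and Evx1. Around Hoxd it ran for 245.9 kb from Lnpk to Mtx2 and held the 9 Hoxd genes and Evx2. Evx1 and Evx2 are homeobox genes at the ends of these clusters, and neither had a peak in any list. Around Hoxb the stretch ran for 387.6 kb from Atp5g1 to Skap1 and held the 10 Hoxb genes with Calcoco2 and Ttll6. At Hoxc the region at Hoxc6 split the interval into stretches of 251.4 and 146.9 kb, and the regions at its outer ends lay in no protein-coding gene, 24337 bp from Calcoco1 and 5748 bp from Smug1. The median stretch between neighbouring H3K4me3 regions was 46.7 kb. Of the 15551 such stretches, between 85.5 and 94.1% were shorter than those of Hoxa, Hoxb and Hoxd, and 85.8 and 77.4% were shorter than those beside Hoxc6.

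The regions at these edges had their lowest fold enrichment at Hoxc. H3K4me3 fold enrichment in replicates 1 and 2 was 17.3 and 15.3 at Skap2, 17.7 and 20.5 at Hibadh, 21.3 and 18.2 at Lnpk, and 19.1 and 17.9 at Mtx2. At the Hoxb edges it was 19.3 and 18.6 at Atp5g1, a subunit of the mitochondrial ATP synthase, and 12.7 and 9.97 at Skap1. At the outer ends of Hoxc it was 9.29 and 9.31 on the side of Calcoco1 and 7.49 and 4.74 on the side of Smug1, the latter in replicate 2 close to the 4.41 of Hoxc6. The values at Skap1 and at both Hoxc ends were below the medians of their lists. Of 19 neighbouring genes that the table holds from the list used, 15 (78.9%) had an H3K4me3 region in both replicates and 11 (57.9%) had a MafA region in both, against 60.6 and 34.3% of all protein-coding genes.

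MafA regions came closer to some clusters than to others. The nearest one found in both replicates lay 32.8 kb beyond the Hoxa locus on the side of Hoxa13, 51.9 kb from the Hoxb locus in Ttll6, 108.6 kb from the Hoxc locus and 113.1 kb from the Hoxd locus. Within 500 kb on either side there were 21 MafA regions around Hoxa, 14 around Hoxb, 19 around Hoxc and 6 around Hoxd, against a genome mean of 9.51 per Mb. The matching numbers of H3K4me3 regions were 4, 14, 24 and 4, against a genome mean of 5.72 per Mb. The lack of MafA regions found in both replicates inside the clusters thus went with numbers in the flanks that were above the genome mean around Hoxa, Hoxb and Hoxc and below it around Hoxd.

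Every Hox gene lay more than 20 kb from a MafA region found in both replicates, with a median of 134.6 kb and a range from 33.8 kb (Hoxa13) to 217.7 kb (Hoxc13). Of all protein-coding genes with a value, 47.4% lay that far away, with a median of 16.6 kb. From H3K4me3 regions 34 of the 39 Hox genes lay more than 20 kb away, with a median of 117.6 kb, against 31.2% of all protein-coding genes. The 5 nearer genes, Hoxc4, Hoxc5, Hoxc6, Hoxc8 and Hoxc9, all owed this to the weak region at Hoxc6. The distances within a cluster share their regions and are not independent.

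**Figure D3:**
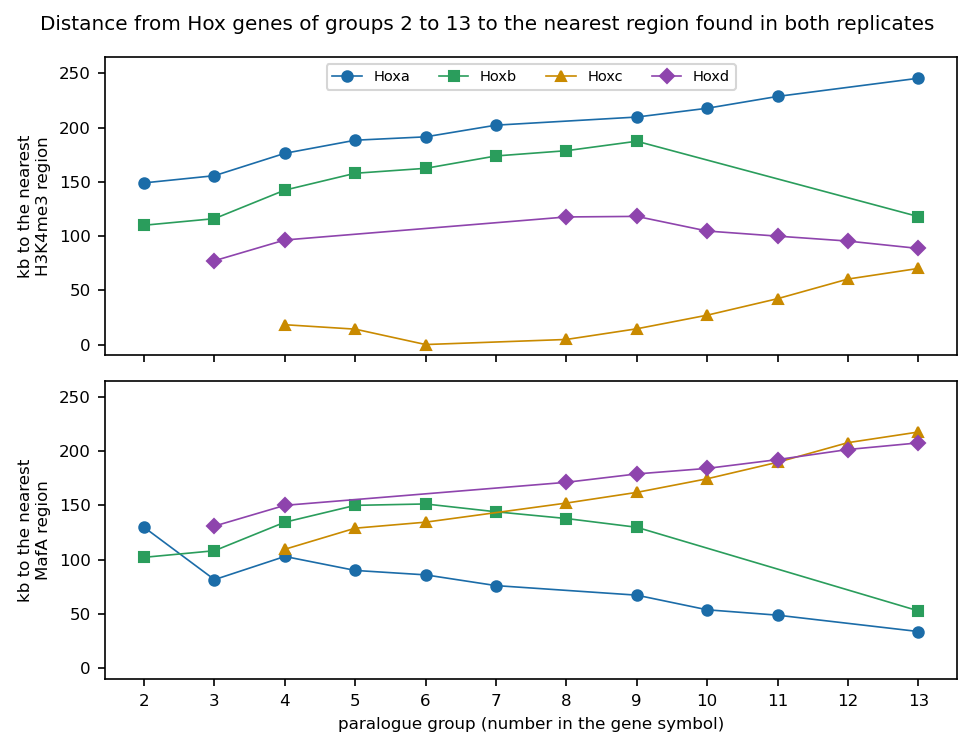
Distance in kb from the Hox genes of paralogue groups 2 to 13 to the nearest region found in both replicates (H3K4me3 above, MafA below), by group (the number in the symbol), with lines joining the genes of a cluster. Hoxc6 alone touches a region, and no gene plotted lies within 33.8 kb of a MafA region.

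The promoters of the Hox genes were next set against other promoters of like composition, because the mark went with CpG dinucleotides: 6.91% of promoters with 0 to 4 CpG had an H3K4me3 region, and 95.2% of those with 30 to 39. RefSeq promoter sequences of GRCm38.p6, 300 bp each, were at hand for 24 promoters of 22 Hox genes. Hoxc6, the Hox gene with an H3K4me3 region, is not among the 22, and Hoxc4 is the only Hoxc gene there, so these counts leave out the 1 marked Hox gene. They held between 4 and 45 CpG, with a median of 14.5, against a median of 13 over 21262 promoters of protein-coding genes. None of the 24 had an H3K4me3 or a MafA region found in both replicates within 1 kb, against 57.2 and 19.5% of all promoters. At least 20 CpG were present in 11 of the Hox promoters and in 7640 of all, and of the latter 93.7% had an H3K4me3 region and 30.4% had a MafA region. Those 11 all lie in Hoxa and Hoxd, whose loci held no H3K4me3 peak in either list. Their lack of the mark therefore repeats the result for those loci and is not 11 separate results. The Hox promoters lacked a region at low and at high numbers of CpG. At 0 to 4 and at 5 to 9 CpG, with 3 and 4 Hox promoters, only 6.91 and 32.5% of all promoters had an H3K4me3 region. A lack of the mark is thus common at those low numbers. The limit of 20 CpG was chosen after the data had been seen.

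The sequences below are shown because they carry that contrast, with every CpG in capitals and the rest in lower case, 5′ to 3′ on the strand of the gene. Hoxa13 at chr6:52260831-52261130 (minus strand, 45 CpG) and Hoxd13 at chr2:74667975-74668274 (plus strand, 37 CpG) belong to genes that pattern the digits and the urogenital tract. Hoxa5 at chr6:52204538-52204837 (minus strand, 29 CpG) belongs to a gene needed for the airways, and Hoxd3 at chr2:74711743-74712042 (plus strand, 20 CpG) to the gene with the MafA peak. Gsx1 at chr5:147188446-147188745 (plus strand, 19 CpG) and Pdx1 at chr5:147269847-147270146 (plus strand, 11 CpG) are ParaHox genes, the nearest relatives of the Hox genes, and both had an H3K4me3 region. They were picked from the 5 ParaHox promoters at hand, of which 3 had such a region. Gsx2, with 17 CpG, more than Pdx1, and Cdx4, with 8, had none.
Hoxa13: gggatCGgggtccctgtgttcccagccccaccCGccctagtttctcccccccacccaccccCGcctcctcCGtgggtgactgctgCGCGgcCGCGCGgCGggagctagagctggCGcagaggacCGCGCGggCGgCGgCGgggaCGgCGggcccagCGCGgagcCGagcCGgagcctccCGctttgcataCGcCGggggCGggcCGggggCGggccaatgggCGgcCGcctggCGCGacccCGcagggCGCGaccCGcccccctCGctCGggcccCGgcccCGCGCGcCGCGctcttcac
Hoxd13: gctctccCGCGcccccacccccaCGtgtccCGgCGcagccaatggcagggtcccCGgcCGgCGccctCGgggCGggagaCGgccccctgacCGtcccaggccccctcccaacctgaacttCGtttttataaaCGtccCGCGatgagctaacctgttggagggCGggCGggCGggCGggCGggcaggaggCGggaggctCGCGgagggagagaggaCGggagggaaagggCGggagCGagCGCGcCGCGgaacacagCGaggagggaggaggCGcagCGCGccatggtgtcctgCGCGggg
Hoxa5: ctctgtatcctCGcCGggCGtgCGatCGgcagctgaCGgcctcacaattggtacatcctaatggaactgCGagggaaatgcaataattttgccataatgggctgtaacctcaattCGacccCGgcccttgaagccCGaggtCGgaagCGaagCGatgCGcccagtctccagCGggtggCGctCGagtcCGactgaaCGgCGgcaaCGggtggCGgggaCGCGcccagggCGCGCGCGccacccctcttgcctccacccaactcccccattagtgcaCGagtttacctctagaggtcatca
Hoxd3: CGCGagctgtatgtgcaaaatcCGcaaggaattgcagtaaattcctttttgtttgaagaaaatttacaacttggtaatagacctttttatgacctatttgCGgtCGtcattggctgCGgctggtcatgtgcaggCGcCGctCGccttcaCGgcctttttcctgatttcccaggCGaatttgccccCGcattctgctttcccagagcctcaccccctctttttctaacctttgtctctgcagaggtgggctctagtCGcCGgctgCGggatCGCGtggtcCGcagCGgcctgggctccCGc
Gsx1: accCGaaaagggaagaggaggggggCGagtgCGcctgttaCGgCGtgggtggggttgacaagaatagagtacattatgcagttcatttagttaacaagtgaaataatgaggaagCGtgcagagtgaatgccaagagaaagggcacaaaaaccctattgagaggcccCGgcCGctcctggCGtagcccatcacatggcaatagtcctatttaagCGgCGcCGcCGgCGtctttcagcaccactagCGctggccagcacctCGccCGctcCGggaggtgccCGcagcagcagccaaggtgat
Pdx1: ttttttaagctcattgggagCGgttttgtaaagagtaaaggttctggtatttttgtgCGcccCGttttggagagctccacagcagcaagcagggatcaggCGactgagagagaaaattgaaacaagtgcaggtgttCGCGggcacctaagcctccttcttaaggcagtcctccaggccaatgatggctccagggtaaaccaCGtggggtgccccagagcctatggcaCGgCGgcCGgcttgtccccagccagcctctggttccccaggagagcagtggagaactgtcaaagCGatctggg

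The first 4 of these promoters were picked from the Hox promoters with at least 20 CpG, so that they exceed the last 2 follows from the choice. None of the 4 had a region of either target, while Pdx1, with the fewest CpG of the 6, had regions of both. Fold enrichment at Pdx1, the master regulator of the pancreas and of beta cells, was 19.6 and 16.6 for H3K4me3 and 18.2 and 25 for MafA in replicates 1 and 2. At Gsx1, a gene of the developing brain, H3K4me3 fold enrichment was 16.0 and 14.1.

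**Figure D4:**
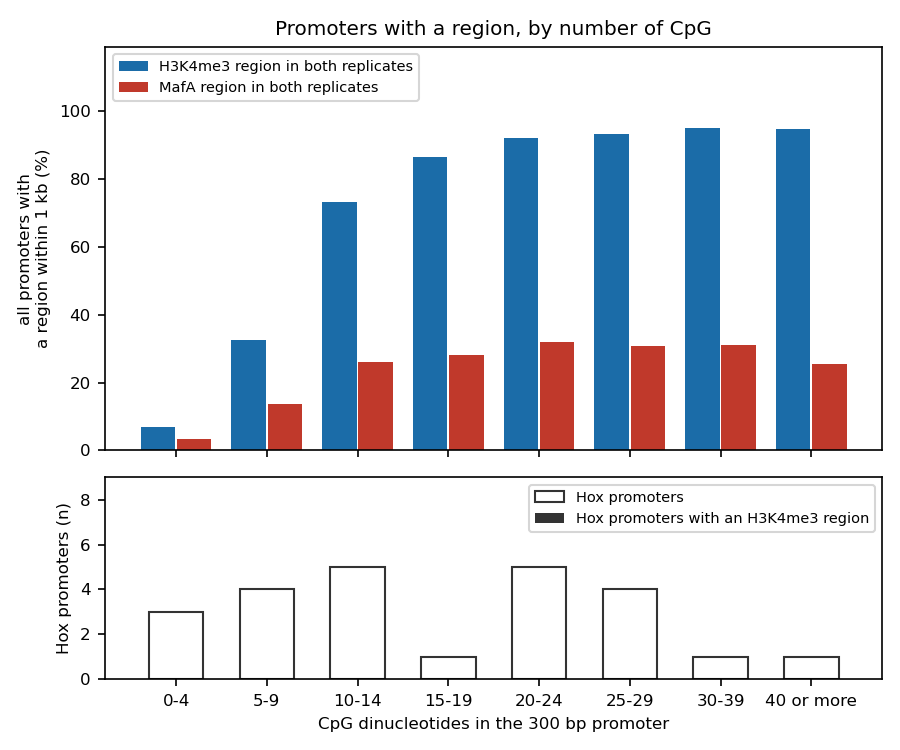
Share of all promoters with an H3K4me3 or MafA region found in both replicates within 1 kb (top, percent) and number of Hox promoters (bottom), by CpG dinucleotides in the 300 bp promoter. The H3K4me3 share passes 90% from 20 CpG on, where 11 Hox promoters lie, and none of the 24 Hox promoters has a region.

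The clusters were also compared with other stretches of the genome that hold no H3K4me3 region. Of the 15551 stretches between H3K4me3 regions, 15134 held no gene with a promoter of at least 20 CpG, and 4 held 5 or more such genes. The Hoxd stretch held 6 (Hoxd1, Hoxd3, Hoxd9, Hoxd10, Hoxd11 and Hoxd13) and the Hoxa stretch 5 (Hoxa3, Hoxa5, Hoxa6, Hoxa10 and Hoxa13). The other stretches with 5 or more held 7 and 6 predicted genes with Gm symbols, on chromosomes 4 and 12. The cut of 5 equals the count of Hoxa itself, and the limit of 20 CpG was chosen after the data had been seen, so this rank is no test. Of all promoters with at least 20 CpG, 93.7% had an H3K4me3 region within 1 kb, so few stretches could hold such a gene. For Hoxb and Hoxc the promoter sequences at hand covered 4 genes, so the numbers there are not comparable. By number of genes of any kind the Hox stretches were less unusual, since 102 stretches held 12 or more protein-coding genes, led by arrays of olfactory receptors.

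Sequence motifs were searched on both strands of the promoters. TGCTGAC, the core that MAF proteins recognise, was in 0 of the 24 Hox promoters and in 4.30% of all 21262. The full palindromic sites, T-MARE and C-MARE, which contain that core, were in none of the 21262. The HOX-PBX site TGATTNAT was in 2 Hox promoters, those of Hoxa2 and of Hoxd11, and in 2.75% of all. These are matches of letters in 300 bp windows and not measured sites.

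RefSeq places 32 noncoding genes and pseudogenes within the loci, and 28 of them (87.5%) had no peak in any list, against 76.5% of all 28056 noncoding genes and pseudogenes. Among these 28 were Hotair, Hotairm1, Haglr and the antisense gene Hoxb3os, all of them long noncoding RNAs, and all 6 miRNA genes, where 78.7% of all 1228 miRNA genes had no peak. A lack of peaks is thus common among such genes. Those with a peak were Gm29905, which had the H3K4me3 region at Hoxc6, and Gm53, Gm38462 and Hoxd3os1, which had a MafA peak in 1 replicate each.

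The miRNAs of the clusters are printed for the seeds that tie their families to Hox genes, bases 2 to 8 in capitals, from RefSeq for GRCm38.p6. Both families are known to repress Hox messages, so they belong to the same circuit as the genes around them. Mir10a lies in Hoxb and Mir10b in Hoxd, and they share a seed. Mir196b lies in Hoxa, and the same mature miR-196a comes from Mir196a-1 in Hoxb and Mir196a-2 in Hoxc, all with a common seed. Mir615, in Hoxc, has a different one.
miR-10a-5p: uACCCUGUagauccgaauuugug
miR-10b-5p: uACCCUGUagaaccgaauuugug
miR-196a-5p: uAGGUAGUuucauguuguuggg
miR-196b-5p: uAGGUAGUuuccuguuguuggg

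Genes that work with Hox proteins or control the clusters looked different. The TALE cofactors, homeodomain proteins such as PBX and MEIS that bind DNA together with Hox proteins, had an H3K4me3 region in both replicates at 9 of 9 genes and a MafA region at 6 of 9. The shares over all protein-coding genes were 60.6 and 34.3%. In replicates 1 and 2 the H3K4me3 fold enrichment of the TALE genes was lowest at Meis1, at 6.33 and 5.52. It was highest at Pbx2 in replicate 1, at 24.7, and at Pbx4 in replicate 2, at 23.3. MafA regions at Pknox2 reached 26.7 and 29, and those at Meis2 24.5 and 27.5. So the partner genes of Hox proteins carried the mark and often MafA in cells where the Hox genes carried neither in both replicates, apart from Hoxc6.

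Of the Polycomb genes, which encode the repressors that bind silent Hox clusters, 28 of 28 had an H3K4me3 region in both replicates and 17 had a MafA region. The methyltransferase gene Ezh2 had an H3K4me3 fold enrichment of 22.5 and 21.0, and the ubiquitin ligase gene Rnf2 one of 27.5 and 21.8, with a MafA region of 18.0 and 17.9. A list around the MLL complexes, which write H3K4 methylation and keep Hox genes active in other cells, also held partners and related genes such as the H3K27 demethylases Kdm6a and Kdm6b. Of these, 16 of 16 had the mark and 11 had a MafA region. Kmt2a had an H3K4me3 fold enrichment of 32.0 and 22.3, and Men1 one of 26.8 and 22.2 with no MafA region in both replicates. A MafA region was thus at 60.7% of the Polycomb list and 68.8% of the MLL list. Of all protein-coding genes, 60.6% had an H3K4me3 region and 34.3% a MafA region in both replicates. The lists were not matched to the Hox genes for length, and under 10 kb the genome shares were 40.3 and 14.6%. These lists are far above the genome share for H3K4me3 and the Hox genes far below it, which is a description of chosen lists.

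Other homeobox genes lay closer to the shares over all protein-coding genes than the Hox genes did. Of the 6 ParaHox genes, Pdx1, Cdx2 and Gsx1 had an H3K4me3 region in both replicates, while Cdx1, Cdx4 and Gsx2 had no peak in any list. A further list of 138 genes from other homeobox families, put together after the Hox peaks had been seen, had an H3K4me3 region at 70 (50.7%) and a MafA region at 33 (23.9%), and 54 (39.1%) had no peak. Among its promoters with at least 20 CpG, 36 of 53 (67.9%) had an H3K4me3 region, against 0 of 11 for Hox and 93.7% of all such promoters. The 11 Hox promoters all lie in Hoxa and Hoxd, whose loci held no H3K4me3 peak, so they are not independent. The homeobox genes listed here were thus not empty as the Hox clusters were, though the list does not hold every homeobox family. Mean H3K4me3 fold enrichment at its 70 marked genes ran from 3.49 (Nkx1-1), below the 3.92 of Hoxc6, to 36.5 (Prox2). The difference between the lists was not tested.

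**Figure D5:**
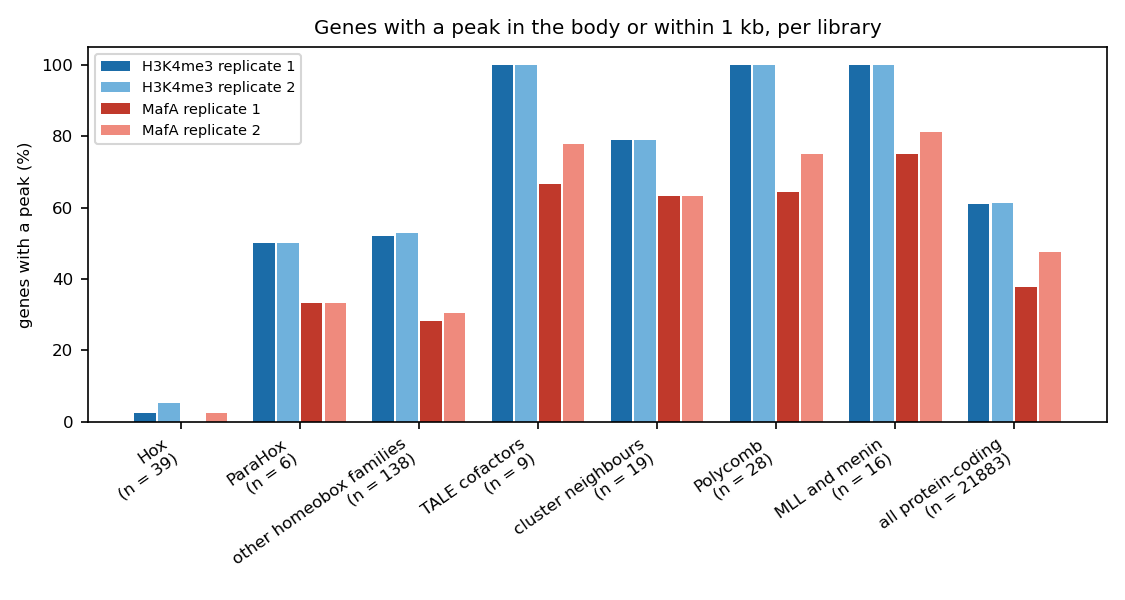
Percent of genes with a peak in the body or within 1 kb, in each of the 4 libraries, for the Hox genes, related gene lists and all protein-coding genes, with the number of genes under each name. Hox bars reach at most 5.13%, ParaHox and other homeobox genes lie between 28.3 and 52.9%, and the TALE, Polycomb and MLL lists are at 100% for H3K4me3.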

How the data were processed

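CUT&RUN libraries of MIN6 cells were sequenced as 150 bp pairs, per the labels' protocols. The authors called narrow peaks with MACS2 on GRCm38 (mm10), per the submitters' processing notes, in 1 list per library. The MACS2 version, aligner, filters and control library are not given in the sources used here. Values deposited per peak are a fold enrichment, on a linear scale and not log transformed, and −log10 p and q values, all at the summit.

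Scripts ran in Python 3.11.15 with scipy 1.17.1, pandas 2.3.3 and numpy 2.4.6, and figures were drawn with matplotlib 3.10.9. Regions found in both replicates were unions of peaks overlapping by at least 1 bp. Fragments were recovered for peaks with a −log10 p under 20, from fold enrichment as (pileup + 1) / (background + 1) and a Poisson p. The pileup was taken as whole fragments times a factor per library, within 0.005; the factor was 0.415 (replicate 1) and 0.997 (replicate 2) in H3K4me3, and 1.0 (replicate 1) and 0.746 (replicate 2) in MafA. This solved 100% of such peaks in 3 lists and 99.996% in MafA replicate 2. The routines were tested on simulated data. Read totals are unknown, and recovered fragments stand in for depth.

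Groups came from the sample titles. Shares per library were compared by exact permutation tests; counts of members stand beside those over all protein-coding genes. Genes named with values were all Hox genes with a peak, genes at the edges of the clusters and examples from the other lists. The examples were not always the strongest of their list. By mean H3K4me3 fold enrichment, Ezh1 (28.0) led the Polycomb list and Wdr5 (31.7) the MLL list. Some genes without a peak were also named. The members and lists were chosen with earlier results of these data known. Values of 1 member are not reported here by name. The table holds no exons, so positions are given relative to gene ends. Of 20 listed neighbours, 19 were in the table. The alternatives tried were a stricter −log10 q (5 or more), the 16020 strongest peaks of every library, other windows, 50% reciprocal overlap, a block for the replicate number, and omission of each library in turn.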

Additional observations from a re-analysis of the deposited data

How the results depend on the processing

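The number of Hox genes with an H3K4me3 region in both replicates, 1, stayed at 1 for a −log10 q of at least 5, the 16020 strongest peaks of every library, gene bodies only and 50% reciprocal overlap. It was 2 with 5 kb either side, which adds Hoxc8, and between 1 and 2 when a library was left out: without H3K4me3 replicate 1, Hoxb3 joins Hoxc6. The number with a MafA region was 0 under those 5 alternatives and between 0 and 1 when a library was left out, Hoxd3 entering without MafA replicate 1. The number with both targets was 0 throughout.

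The difference in the share of Hox genes with a peak stayed at 2.56 percentage points, or 3.85 with 5 kb either side, and ran from 1.28 to 3.85 when a library was left out. The lower value came without H3K4me3 replicate 2 or without MafA replicate 1. The difference in the covered share of the loci, 0.10 points, was 0.170 for the stricter q and for the strongest peaks, 0.102 with no flank and 0.0875 with 10 kb, and ran from 0.0503 (without H3K4me3 replicate 2) to 0.150 (without H3K4me3 replicate 1). A replicate block gave differences of 2.56 and 0.10 points, each with an exact permutation p of 0.5, the smallest that 2 pairs can give. Nothing in the labels ties equal numbers to a shared culture or day. No setting could pass 0.05, which says nothing about stability.

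The fold enrichment at Hoxc6 was 3.92 in all 3 alternatives with both replicates. All 6 peaks in the loci rest on 12 to 72 fragments.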
